A study of Rattus norvegicus with 16 samples.

Results

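Right ventricles of rats were examined here for 9 genes of the thin filament of muscle, namely the actins Acta1, Acta2 and Actc1, the tropomyosins Tpm1, Tpm2 and Tpm3, the tropomodulins Tmod1 and Tmod4, and the leiomodin Lmod2. The genes were chosen by name, and 8 of the 9 were measured, out of 17245 genes with a value. Acta2, the actin of smooth muscle and myofibroblasts, was paired with no probe set by the array annotation used here and has no value below. The study profiled RNA of the right ventricular wall. The male Wistar rats, of 160 to 180 g body weight, were either sham operated or banded at the pulmonary artery, a constriction that loads the right ventricle with pressure. The arrays fall into 5 labelled RVF+, 4 labelled RVF and 7 labelled CON, which the design text calls controls. The labels do not spell out RVF+ and RVF, and they do not say which array came from which operation. Whether each array is its own animal is also not stated, and the p-values therefore cover only the variation between arrays, which could be technical.

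The thin filament of striated muscle is a double strand of actin with tropomyosin lying along its groove, where it gates the access of myosin. Tropomodulins cap the pointed end of the filament in the middle of the sarcomere, and leiomodins bind the same end and promote its lengthening. Adult rodent ventricle chiefly uses the cardiac actin Actc1 and the alpha-tropomyosin Tpm1, while the skeletal actin Acta1 and the beta-tropomyosin Tpm2 are known from skeletal muscle and from the fetal or loaded rodent heart. Tpm3 encodes the slow-fibre tropomyosin of skeletal muscle and, from other start sites, tropomyosins of the cytoplasm. Tmod1 is the main tropomodulin of heart muscle, and Tmod4 is known chiefly from skeletal muscle.

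All values are log2 of the deposited intensity, so a difference of 1 is a 2-fold change, and levels of different genes are not set against each other. Differences are given with the SE from limma, fitted to all genes and arrays at once, and adjusted p-values are over all 17245 genes. On whole-ventricle RNA, fewer cells of a type and less RNA per cell cannot be told apart. The 12 cardiomyocyte markers averaged 10.6 to 11.4 in RVF+ arrays, 11.3 to 11.4 in RVF arrays and 11.4 to 11.5 in CON arrays, so the tissue carried heart muscle RNA throughout. The array RVF+ 8 stood apart, lying 0.711 from the mean CON profile as a root mean square over all genes, against 0.326 to 0.448 in the other RVF+ and RVF arrays. It also had the lowest cardiomyocyte marker mean (10.6) and the highest fibroblast (8.99) and macrophage (8.95) marker means of all RVF+ and RVF arrays. Results that it moves most are given with and without it.

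Against the controls, the skeletal actin Acta1 and the tropomyosins Tpm2 and Tpm3 were higher and the tropomodulin Tmod4 was lower in both RVF+ and RVF, while the cardiac actin Actc1, Tpm1 and Tmod1 did not pass the test. In RVF+ ventricles 3 of the 8 genes were higher than in CON (Acta1, Tpm2 and Tpm3) and 1 was lower (Tmod4), where 14.1% of all genes were called higher and 13.6% lower. In RVF ventricles 4 of the 8 were higher (Acta1, Tpm2, Tpm3 and Lmod2) and 1 was lower (Tmod4), where 8.86% of all genes were called higher and 8.29% lower. In both comparisons Acta1, Tpm2 and Tpm3 lay wholly above CON and Tmod4 wholly below it, where 6.96% (RVF+) and 9.83% (RVF) of all genes lay wholly above and 7.63% and 9% wholly below. Both comparisons use the same CON arrays. Leaving out RVF+ 8, the counts of called genes were again 4 and 5, with 24.9% and 24.6% of all genes called in either direction, against 27.7% and 17.1% with it.

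**Figure D1:**
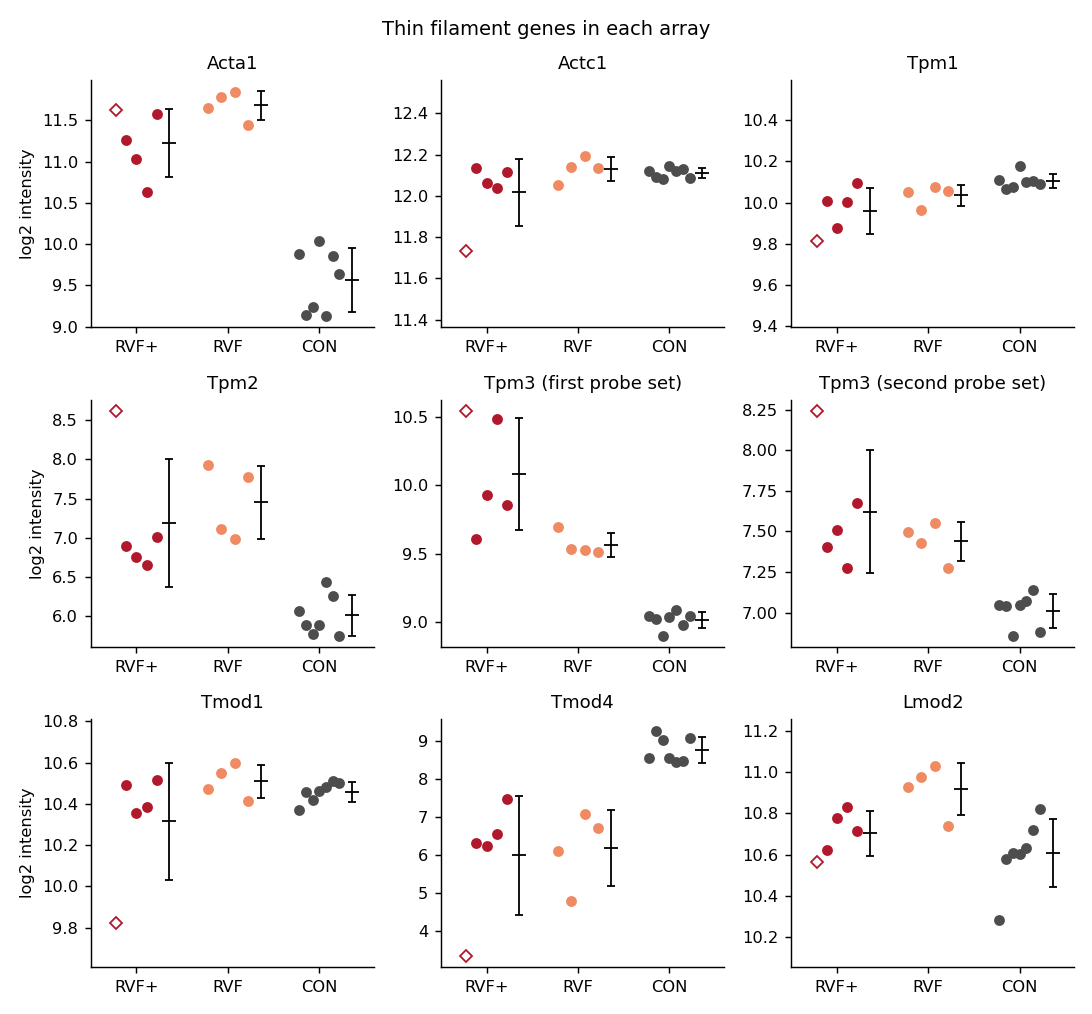
Log2 intensity (vertical axes) of the 8 measured genes in each array, with both probe sets of Tpm3, for 5 RVF+, 4 RVF and 7 CON arrays. Points are arrays, the open diamond is RVF+ 8, and bars show mean and SD. Acta1, Tpm2 and Tpm3 lie above, and Tmod4 below, all CON arrays in every RVF+ and RVF array, while Actc1, Tpm1 and Tmod1 overlap CON.

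The actins are the clearest pair, and the 300-base windows around the annotated starts of both measured actin genes are shown because one gene moved and the other did not pass. They are RefSeq sequences of assembly GRCr8, from 250 bases before to 50 bases after the start, read along the gene's strand. The Acta1 window lies at chr19:68784145-68784444 and the Actc1 window at chr3:121271778-121272077, both on the minus strand. Capitals mark the CArG box, the core sequence bound by serum response factor, searched on both strands. Only exact matches to CCWWWWWWGG were counted, where W is A or T.

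Acta1: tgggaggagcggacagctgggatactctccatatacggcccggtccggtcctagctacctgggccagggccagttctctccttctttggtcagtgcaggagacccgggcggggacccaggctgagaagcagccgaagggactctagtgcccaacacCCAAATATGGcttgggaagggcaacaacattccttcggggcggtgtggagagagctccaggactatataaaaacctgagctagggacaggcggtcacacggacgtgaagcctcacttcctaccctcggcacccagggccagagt
Actc1: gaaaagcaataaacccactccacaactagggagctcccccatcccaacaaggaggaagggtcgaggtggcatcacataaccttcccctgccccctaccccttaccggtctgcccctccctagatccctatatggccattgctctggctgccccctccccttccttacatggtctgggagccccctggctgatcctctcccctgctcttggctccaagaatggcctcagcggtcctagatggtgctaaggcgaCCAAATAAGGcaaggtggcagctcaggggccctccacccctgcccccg

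Each of these windows held 1 exact CArG box, which began at position -94 from the annotated start in Acta1 and at position 3 in Actc1. The place of the annotated starts was not tested, so the positions are not read as a contrast between the genes. An exact CArG box was present in 1.64% of the 33469 rat promoter windows of the same length. The Acta1 window also held the MCAT motif (CATTCC on either strand, in 14.2% of windows) at position -67 and TATAAA (on the gene's strand or the other, also in 14.2%) at position -29, and none of these motifs overlap. The MCAT motif also lay in the windows of Tpm1 (position -31) and Acta2 (-196). None of the windows of the other 7 genes held an exact CArG box by the same search. Stretches 1 base off the pattern were not counted. The Acta2 window holds ccctatatgg and ccttgtttgg, and the Actc1 window also holds ccctatatgg. A window without an exact match is therefore not shown to lack a site for serum response factor. The match of letters is a description of these windows, and binding was not measured.

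Acta1 measured 11.63, 11.26, 11.03, 10.63 and 11.58 in the RVF+ arrays and 11.65, 11.78, 11.84 and 11.44 in the RVF arrays. In CON it ran from 9.13 over a median of 9.63 to 10.04, so every RVF+ and RVF array lay above every control. The rise was 3.17-fold in RVF+ (1.67 ± 0.19, adjusted p = 7.64e-06) and 4.35-fold in RVF (2.12 ± 0.20, adjusted p = 2.60e-06). RVF+ and RVF were not separated by the test (-0.45 ± 0.22, 95% interval -0.91 to -0.0012, adjusted p = 0.691), although 3 of the 5 RVF+ arrays lay below all RVF arrays.

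Actc1, the actin that makes up most of the adult cardiac thin filament, measured 11.73 in RVF+ 8 and 12.04 to 12.13 in the other RVF+ arrays. It ran from 12.05 to 12.19 in RVF and from 12.08 to 12.15 in CON. The differences from CON were -0.095 ± 0.069 in RVF+ (95% interval -0.24 to 0.051, adjusted p = 0.341) and 0.018 ± 0.074 in RVF (95% interval -0.14 to 0.17, adjusted p = 0.904). The difference in RVF+ shrank to -0.024 ± 0.057 without RVF+ 8. Coding sequences of the muscle actins are nearly identical, so probes of one actin may also take up RNA of another, and this was not tested.

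The ratio of Acta1 to Actc1 within each array is given relative to its CON mean. It was higher by 2.44, 1.68, 1.52, 1.15 and 2.01 in the RVF+ arrays and by 1.86 to 2.2 in the RVF arrays, while CON arrays ran from -0.44 to 0.45. All RVF+ and RVF arrays thus lay outside the control range. The ratio was 3.39-fold higher in RVF+ (1.76, two-sided exact permutation p = 0.00126 over 792 splits) and 4.29-fold higher in RVF (2.10, exact permutation p = 0.00303 over 330 splits). Each p is the smallest its design allows, and adjusted over the 15 ratio tests they were 0.00473 and 0.00505. RVF+ against RVF differed by -0.34 (exact permutation p = 0.254 over 126 splits, adjusted p = 0.317).

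Among the tropomyosins Tpm2 had the largest difference between RVF and CON. It measured 8.62, 6.90, 6.76, 6.65 and 7.01 in RVF+ arrays and 7.93, 7.12, 6.99 and 7.77 in RVF arrays, against 5.75 to 6.44 with a median of 5.90 in CON. The highest value belonged to RVF+ 8, and no RVF+ or RVF array overlapped the controls. RVF+ 8 also had the highest fibroblast marker mean (8.99), and the part of fibroblasts or other cells in the Tpm2 values was not tested. Tpm2 was 2.26-fold higher in RVF+ (1.17 ± 0.27, adjusted p = 0.00373) and 2.71-fold higher in RVF (1.44 ± 0.29, adjusted p = 0.00234). The rise in RVF+ was 1.76-fold without RVF+ 8 (0.82 ± 0.17, adjusted p = 0.00155), and 3 of the 4 remaining RVF+ values lay below all RVF arrays. RVF+ against RVF was -0.26 ± 0.31 (95% interval -0.93 to 0.40, adjusted p = 0.912) and -0.62 ± 0.19 without RVF+ 8 (adjusted p = 0.373).

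Tpm3 was read by 2 probe sets that differ in size of change. The first, which is the brighter, measured 10.55, 9.61, 9.93, 10.48 and 9.86 in RVF+ arrays and 9.69, 9.53, 9.52 and 9.51 in RVF arrays, against 8.90 to 9.09 in CON. The second measured 8.24, 7.40, 7.51, 7.28 and 7.68 in RVF+ and 7.50, 7.43, 7.55 and 7.28 in RVF, against 6.86 to 7.14 in CON. On both probe sets every RVF+ and RVF array was above all controls. The first gave a 2.10-fold rise in RVF+ (1.07 ± 0.13, adjusted p = 1.37e-05) and a 1.47-fold rise in RVF (0.55 ± 0.14, adjusted p = 0.01). The second, tested among all probe sets with 1 symbol, gave 1.53-fold in RVF+ (0.61 ± 0.13, adjusted p = 0.00151) and 1.35-fold in RVF (0.43 ± 0.13, adjusted p = 0.0365).

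The probe sets parted most in 1 array. RVF+ 11 was 1.47 above the CON mean on the first and 0.26 on the second, while RVF+ 8 was 1.53 and 1.23. Across all 16 arrays the probe sets correlated with r = 0.81, and across the 9 RVF+ and RVF arrays with r = 0.51, as a description over arrays that share their groups. On the first probe set RVF+ exceeded RVF by 0.52 ± 0.15, with 4 of 5 RVF+ arrays above all RVF arrays, but over all genes this did not pass (unadjusted p = 0.00248, adjusted p = 0.403). On the second it was 0.18 ± 0.14, and 0.027 ± 0.096 without RVF+ 8. For the other 7 genes, 15 to 20 of the 20 named probe sets nearest in ID number belong to genes of the same chromosome. For the second Tpm3 probe set this held for 20 of 20, on chromosome 2, where RefSeq places Tpm3. Of the 20 nearest to the first, 19 belong to genes of chromosome 17. Which transcript the first probe set reads was not tested, so its values are uncertain as a measure of Tpm3.

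**Figure D2:**
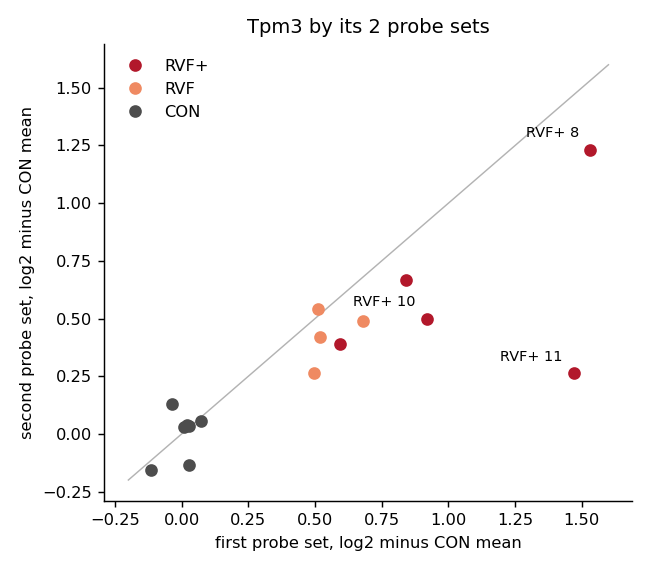
Tpm3 by its probe sets, each point an array, as log2 intensity minus the CON mean on the first (horizontal) and second (vertical) probe set, with the line of equal change. RVF+ and RVF arrays lie above 0 on both axes, and RVF+ 11 lies far off the line at 1.47 and 0.26.

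Tpm1, the main tropomyosin of the ventricle, measured 9.81, 10.01, 9.88, 10.00 and 10.10 in RVF+ arrays and 9.96 to 10.07 in RVF, against 10.07 to 10.18 in CON. Most RVF+ values were below the controls, 4 of 5 of them under the lowest. The difference in RVF+ was -0.14 ± 0.06 (95% interval -0.27 to -0.016, adjusted p = 0.0887) and in RVF it was -0.068 ± 0.065 (adjusted p = 0.532). The value in RVF+ was -0.11 ± 0.06 without RVF+ 8. The call depended on scaling, since with each array centred on its median Tpm1 passed in RVF+ (-0.19, adjusted p = 0.0329).

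Tropomyosin ratios followed Tpm2 and Tpm3, since Tpm1 differed less from CON. Relative to the CON mean, the ratio of Tpm2 to Tpm1 was 2.90 in RVF+ 8 and 0.74 to 1.00 in the other RVF+ arrays, and 1.01 to 1.97 in RVF, against -0.25 to 0.43 in CON. It was 2.50-fold higher in RVF+ (1.32) and 2.84-fold higher in RVF (1.51), with the groups not overlapping and the same exact permutation p-values as the actin ratio. The difference in RVF+ was 0.92 without RVF+ 8. For Tpm3 to Tpm1 the ratio was 1.82, 0.69, 1.15, 1.57 and 0.85 in RVF+ arrays and 0.54 to 0.74 in RVF, against -0.090 to 0.075 in CON. That is 2.32-fold higher in RVF+ (1.22) and 1.54-fold higher in RVF (0.62), again with the smallest p-values the designs allow. With the second Tpm3 probe set the differences from CON were 0.75 and 0.50. The Tpm3 to Tpm1 ratio was 0.60 higher in RVF+ than in RVF (exact permutation p = 0.0476, adjusted p = 0.0649), but 0.26 on the second probe set. Without RVF+ 9 the first value was 0.73 and passed after adjustment over the 15 tests (exact permutation test, adjusted p = 0.0390). For Tpm2 to Tpm1, RVF+ against RVF was -0.19 with all arrays and -0.58 without RVF+ 8, which passed (exact permutation test, adjusted p = 0.0429). With each array left out in turn, these were the only ratios that passed in RVF+ against RVF. Both are named after their values were seen, and neither passed with all arrays.

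**Figure D3:**
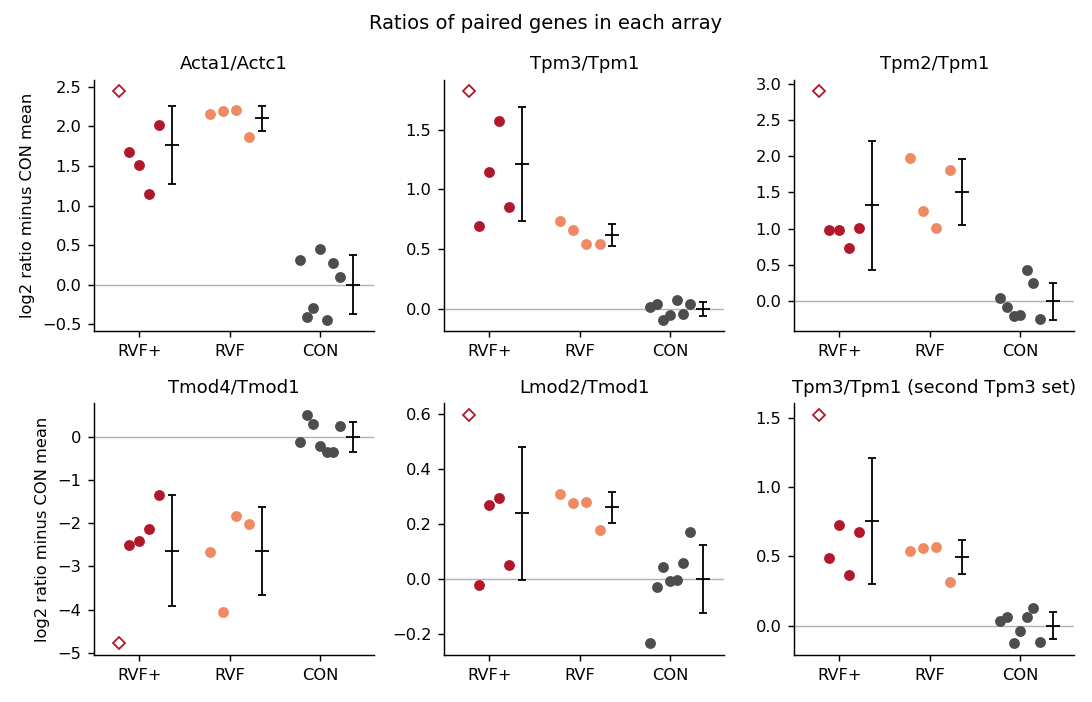
Within-array log2 ratio of gene pairs minus its CON mean (vertical axes) for each RVF+, RVF and CON array. Points are arrays, the open diamond is RVF+ 8, and bars show mean and SD. Ratios of Acta1, Tpm2 and Tpm3 to their partners lie above, and Tmod4 to Tmod1 below, all CON arrays in every RVF+ and RVF array.

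At the filament ends Tmod4 changed most and Tmod1 did not pass. Tmod4 measured 3.36, 6.32, 6.25, 6.56 and 7.49 in RVF+ arrays and 6.12, 4.80, 7.09 and 6.72 in RVF arrays, against 8.45 to 9.28 with a median of 8.57 in CON. Each RVF+ and RVF array lay below all controls, and the arrays of both groups were more spread out than those of CON (SD 1.56 in RVF+, 1.00 in RVF and 0.34 in CON). Single arrays set most of this spread, since the SD was 0.57 in RVF+ without RVF+ 8 and 0.49 in RVF without RVF 14. Tmod4 was 6.87-fold lower in RVF+ (-2.78 ± 0.52, adjusted p = 0.000645) and 6.03-fold lower in RVF (-2.59 ± 0.55, adjusted p = 0.00328). It was 4.35-fold lower in RVF+ without RVF+ 8 (-2.12 ± 0.33, adjusted p = 0.000137). RVF+ against RVF was -0.19 ± 0.59 (95% interval -1.43 to 1.06, adjusted p = 0.970), and its sign turned without RVF+ 8 (0.47 ± 0.37). Markers of atrial myocardium moved both ways, with median differences over the 5 measured of -0.95 in RVF+ and -0.91 in RVF. Differences of Stard10, Myl7 and Sln were negative in both. Those of Bmp10 (0.11 in RVF+ and 0.17 in RVF) and Nr2f2 (0.42 and 0.021) were positive. Of the 5, 1 was called lower and 1 higher in RVF+ and 3 were called lower in RVF. Of all genes, 13.6% were called lower and 14.1% higher in RVF+ and 8.29% lower in RVF. Myl7 did not pass in RVF+ (limma adjusted p = 0.0661). The list mean ran from 5.63 to 6.44 in RVF+, 5.66 to 6.14 in RVF and 6.15 to 7.43 in CON. Stard10 was lower in both (-0.95 ± 0.16 in RVF+ and -0.91 ± 0.17 in RVF), and the atrial light chain Myl7 ran from 6.09 to 8.24 in RVF+, 5.67 to 7.26 in RVF and 6.22 to 10.79 in CON. The part of atrial tissue in the Tmod4 values was not tested.

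Tmod1 measured 9.82 in RVF+ 8 and 10.36 to 10.52 in the other RVF+ arrays, 10.42 to 10.60 in RVF and 10.37 to 10.51 in CON. The groups overlapped, with differences from CON of -0.14 ± 0.10 in RVF+ (95% interval -0.35 to 0.063, adjusted p = 0.307), or -0.019 ± 0.063 without RVF+ 8, and 0.052 ± 0.104 in RVF (95% interval -0.17 to 0.27, adjusted p = 0.788). The ratio of Tmod4 to Tmod1, relative to the CON mean, was -4.78, -2.50, -2.42, -2.14 and -1.34 in RVF+ arrays and -2.67, -4.07, -1.83 and -2.01 in RVF arrays, against -0.36 to 0.50 in CON. It was 6.23-fold lower in RVF+ and 6.25-fold lower in RVF, with the same exact permutation p-values as the actin ratio (0.00126 and 0.00303). RVF+ against RVF differed by 0.0065 (exact permutation p = 0.984). Without RVF+ 8 the difference from CON in RVF+ was -2.10, against -2.64 in RVF, and RVF+ against RVF was 0.54 (exact permutation test, adjusted p = 0.429).

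Lmod2, the leiomodin of heart muscle, measured 10.57, 10.62, 10.78, 10.83 and 10.72 in RVF+ arrays and 10.93, 10.97, 11.03 and 10.74 in RVF arrays, against 10.28 to 10.82 with a median of 10.61 in CON. RVF+ overlapped CON, and 3 of 4 RVF arrays lay above all controls. Lmod2 was 1.24-fold higher in RVF (0.31 ± 0.09, adjusted p = 0.0272), and in RVF+ the difference was 0.096 ± 0.087 (95% interval -0.086 to 0.28, adjusted p = 0.453). The call in RVF ended without RVF 13, 14 or 15 (adjusted p = 0.0688, 0.0784 and 0.0926) and with each array centred on its median (0.0528). RVF+ against RVF was -0.22 ± 0.10 (adjusted p = 0.674). The ratio of Lmod2 to Tmod1 was 0.26 higher in RVF than in CON in 4 of 4 arrays (exact permutation p = 0.00303, adjusted p = 0.00505), and 0.24 higher in RVF+ (exact permutation p = 0.0391, adjusted p = 0.0587), or 0.15 without RVF+ 8 (exact permutation test, adjusted p = 0.143). With limma in place of the permutation test the ratio in RVF did not pass (adjusted p = 0.0894).

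**Figure D4:**
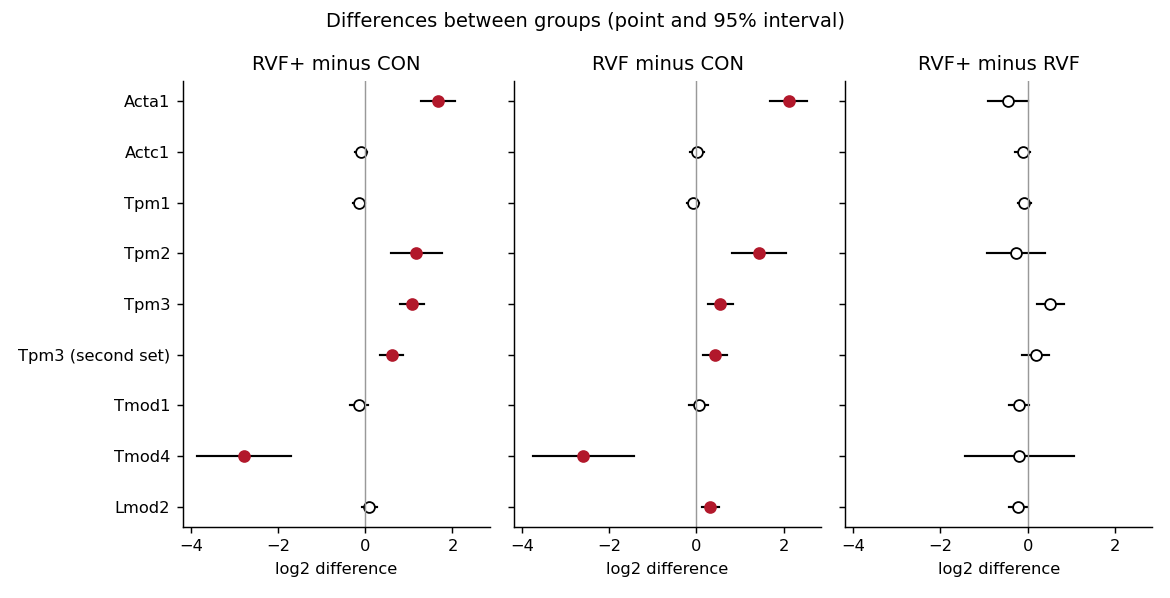
Log2 differences (horizontal axes) of the 8 genes and the second Tpm3 probe set in the 3 comparisons, as point and 95% interval from limma. Filled points passed at an adjusted p under 0.05, which 4 of 8 genes did in RVF+ minus CON, 5 in RVF minus CON and 0 in RVF+ minus RVF.

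In RVF+ against RVF, limma called 0 of the 8 genes and 0 of all 17245 (0% of genes), with 1242 genes (7.20%) at an unadjusted p under 0.05. Among the 8 these were Acta1, Tpm3 on its first probe set and Lmod2. Trend, robust moderation and array weights also called 0 genes. Without RVF+ 12 it called Ace (0.95 ± 0.15), Ndrg1 (0.86 ± 0.13) and Slc28a2 (0.74 ± 0.11), which are named after their values were seen (each adjusted p = 0.0376). Of all genes, 1.74% lay wholly above or below between the groups, and 0 of the 8 did.

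Of 13 measured genes that encode other actins, tropomyosins and proteins at filament ends, 5 were higher and 2 lower in RVF+ and 2 were higher and 0 lower in RVF, with medians of 0.23 and 0.21 against -0.012 and -0.0087 over all genes. The share of all genes called was 14.1% higher and 13.6% lower in RVF+, and 8.86% and 8.29% in RVF. Those that rose in RVF+ included Tpm4, a cytoplasmic tropomyosin (0.47 ± 0.13, adjusted p = 0.00985), and Tmod3, the widely expressed tropomodulin (0.32 ± 0.08, adjusted p = 0.00512). Nebl, the cardiac nebulin relative nebulette, fell by 0.53 (± 0.10, adjusted p = 0.000556, 5 of 5 arrays below CON), and Lmod3, the third leiomodin, fell by 1.01 (± 0.22, adjusted p = 0.00219). In RVF, Nrap, an actin-binding protein of growing myofibrils and the intercalated disc, rose by 0.43 ± 0.12 (adjusted p = 0.0224), and Tmod3 rose by 0.27 ± 0.08 (adjusted p = 0.0304). There Nebl (-0.28 ± 0.10, adjusted p = 0.0804), Lmod3 (-0.54 ± 0.23, adjusted p = 0.131) and Tpm4 (0.32 ± 0.14, adjusted p = 0.122) did not pass with all arrays, and each passed without RVF+ 8. Without RVF+ 8 the counts were 3 higher and 2 lower in RVF+ and 4 higher and 2 lower in RVF. That array enters the RVF counts through the estimate of spread that all groups share.

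Of 21 measured genes of actin turnover and assembly, 13 were higher in RVF+ and 10 in RVF with 0 lower in either, at medians of 0.44 and 0.35. Beside these counts and the marker counts below, 14.1% of all genes were called higher in RVF+ and 8.86% in RVF. Arpc3 and Arpc5, subunits of the complex that nucleates branched actin, were 1.78-fold and 1.63-fold higher in RVF+ (adjusted p = 0.000362 and 0.000636) and 1.49-fold and 1.44-fold higher in RVF (adjusted p = 0.0162 and 0.0139). The filament-severing protein Dstn was 1.42-fold higher in RVF+ (adjusted p = 0.000909) and 1.39-fold in RVF (adjusted p = 0.00429). Twf1, which binds actin monomers, was 1.51-fold higher in RVF+ (adjusted p = 0.00134) and 1.36-fold in RVF (adjusted p = 0.0251). The formin Daam1 was 1.38-fold higher in RVF+ (adjusted p = 0.0066) and 1.58-fold in RVF (adjusted p = 0.00139). Without RVF+ 8 the counts were 11 in RVF+ and 16 in RVF. Of 11 fibroblast and activated fibroblast markers 8 were higher in RVF+ and 7 in RVF, and of 10 macrophage markers 10 and 7. The fibroblast markers Pdgfra (-0.042 in RVF+ and -0.13 in RVF), Tcf21 (-0.083 and -0.099) and Dcn (0.042 and 0.038) passed in neither. Fibroblast marker means ran from 7.98 to 8.99 in RVF+, 8.24 to 8.42 in RVF and 7.31 to 7.62 in CON, and macrophage marker means from 7.55 to 8.95 in RVF+, 7.30 to 7.81 in RVF and 6.55 to 7.04 in CON. Without RVF+ 8 the marker counts were 8 and 10 in RVF+ and 8 and 9 in RVF. Of 6 endothelial markers 1 was higher in RVF+ and 0 in RVF, and of 4 red cell markers 3 were higher in RVF+ and 0 in RVF. Their part in the values of the actin turnover genes was not tested.

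**Figure D5:**
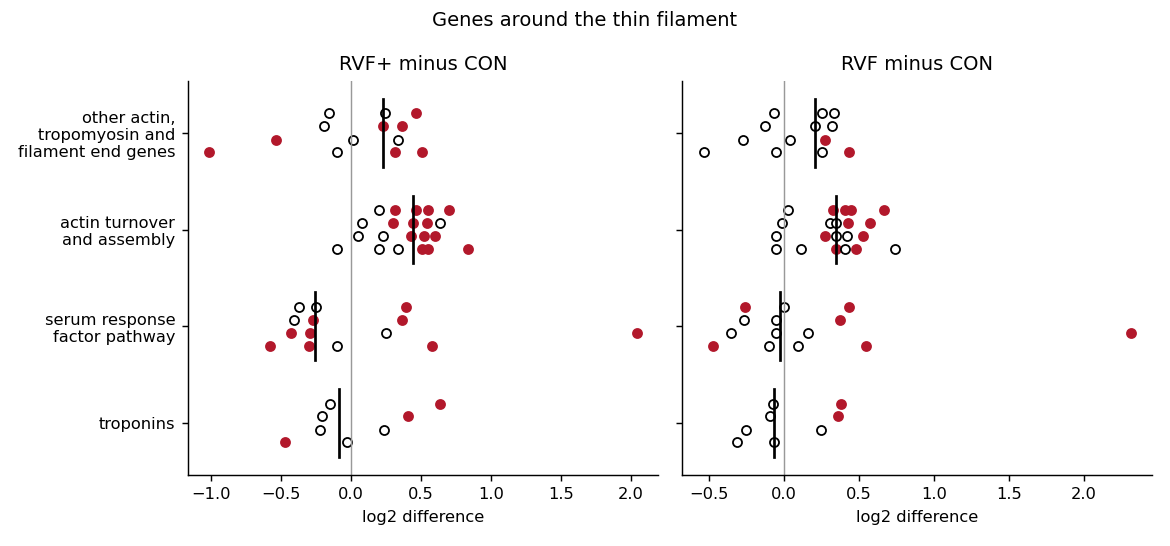
Log2 difference from CON (horizontal axes) of genes in 4 lists around the thin filament, in RVF+ and RVF. Points are genes, filled where the adjusted p was under 0.05, and vertical bars are list medians. Actin turnover genes lie mostly right of 0 (medians 0.44 and 0.35), and serum response factor genes lie on both sides.

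Genes of the serum response factor pathway, which controls many actin genes, moved both ways, 4 of 14 being higher and 5 lower in RVF+ and 4 higher and 2 lower in RVF, at medians of -0.26 and -0.026. Among all genes 14.1% were called higher and 13.6% lower in RVF+, and 8.86% and 8.29% in RVF. Ccn2, a growth factor of the matrix, was 4.12-fold higher in RVF+ (adjusted p = 4.77e-07) and 4.97-fold higher in RVF (adjusted p = 3.28e-07). Zyx, the focal adhesion protein zyxin, was higher by 0.58 ± 0.13 in RVF+ and 0.55 ± 0.14 in RVF (adjusted p = 0.00343 and 0.0134). Fhl2, a muscle LIM protein, was 1.49-fold lower in RVF+ and 1.39-fold lower in RVF (adjusted p = 0.000192 and 0.00279). Myocd, the cofactor myocardin, was 1.34-fold lower in RVF+ (adjusted p = 0.00236) and differed by 0.16 ± 0.10 in RVF (adjusted p = 0.295). Fhl1, another LIM protein of muscle, was 1.32-fold higher in RVF+ (adjusted p = 0.00437) and 1.35-fold in RVF (adjusted p = 0.00648). Srf itself and Mrtfa, another cofactor, are named after their values were seen. Srf differed by -0.29 ± 0.08 in RVF+ (adjusted p = 0.00883, 5 of 5 arrays below CON) and by -0.10 ± 0.08 in RVF, where it did not pass (adjusted p = 0.455). Mrtfa was higher in both, by 0.37 ± 0.10 in RVF+ (adjusted p = 0.00751, 4 of 5 arrays above CON) and by 0.37 ± 0.10 in RVF (adjusted p = 0.0172, 4 of 4 arrays above CON). Without RVF+ 8 the counts were 4 higher and 5 lower in RVF+ and 4 of each in RVF.

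Of the 8 troponin genes, which encode the calcium switch on the thin filament, 2 rose and 1 fell in RVF+ and 2 rose and 0 fell in RVF, at medians of -0.087 and -0.068. Over all genes 14.1% were called higher and 13.6% lower in RVF+, and 8.86% and 8.29% in RVF. Tnni3, the cardiac inhibitory troponin, fell by 0.47 (± 0.13, adjusted p = 0.00991, 5 of 5 arrays below CON) in RVF+. There the fast skeletal troponins Tnni2 (0.64 ± 0.14, adjusted p = 0.00214) and Tnnt3 (0.41 ± 0.11, adjusted p = 0.0116) rose. Tnni2 was dim, from 3.67 to 4.54 in RVF+ and from 3.11 to 3.72 in CON, under the median level of all genes (5.57). Of the 12 cardiomyocyte markers, 7 were lower and 1 higher in RVF+ (median -0.32), and 0 were lower and 1 higher in RVF (median -0.13). Without RVF+ 8 these counts were 7 lower in RVF+ and 3 lower in RVF. Tnni3 and Tnnt2 belong to both lists, and Tnni3 is itself among the markers called lower in RVF+. The part of this shift in the other troponin, Nebl and Tmod4 values was not tested. In RVF the slow skeletal Tnnt1 (0.36 ± 0.10, adjusted p = 0.0209) and Tnnt3 (0.38 ± 0.12, adjusted p = 0.0394) rose. For Tnnt1, 3 of 4 RVF arrays lay above all controls and 1 lay below them. Its levels, 4.076 to 4.719 in RVF and 4.083 to 4.33 in CON, were under the median level of all genes (5.57). Tnni3 in RVF was -0.31 ± 0.13 with 4 of 4 arrays below CON (adjusted p = 0.124), and it passed without RVF+ 8 (adjusted p = 0.000609). The troponin counts without that array were 2 higher and 1 lower in both comparisons.

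Since Acta1, Tpm2 and Tmod4 are also skeletal muscle genes, markers of skeletal muscle were read beside them. Of 11 measured, 3 were higher in RVF+ and 3 in RVF, with 0 lower, where 14.1% and 8.86% of all genes were called higher. The list mean ran from 4.4 to 4.6 in RVF+, 4.51 to 4.62 in RVF and 4.21 to 4.41 in CON. The genes that rose were Myl1, Tnni2 and Tnnt3 in RVF+ and Myl1, Tnnt3 and Casq1 in RVF, so that the list shares members with the troponins. Myl1, a myosin light chain of fast skeletal muscle, was 2.48-fold higher in RVF+ (adjusted p = 6.43e-06) and 3.06-fold higher in RVF (adjusted p = 2.87e-06). Casq1, the skeletal calsequestrin, was 1.62-fold higher in RVF (adjusted p = 0.0457), with 1 of 4 arrays above all controls. The 7 that passed in neither comparison were Myh2, Actn3, Pvalb, Ryr1, Myod1, Myf6 and Tnnc2. They lay between 2.79 and 4.59 in all arrays, under the median level of all genes (5.57). Tnni2, which passed in RVF+, also lay under that level, between 3.11 and 4.54 in all arrays. Of the 12 smooth muscle and pericyte markers, 4 were higher in RVF+ and 3 in RVF with 0 lower. Those that rose included Mcam (1.77-fold in RVF+ and 1.65-fold in RVF) and Pdgfrb (1.46-fold in RVF+ and 1.52-fold in RVF). The smooth muscle genes Myh11, Cnn1, Smtn, Mylk and Lmod1 passed in neither comparison. Whether cells of these types had a part in the thin filament values was not tested. The call of Tagln in RVF+, an actin-binding protein of smooth muscle (0.63 ± 0.22, adjusted p = 0.0417), ended without RVF+ 8 (adjusted p = 0.113).

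For each gene the profiles most like it over the 16 arrays were ranked by Pearson correlation of log2 values, as a description, since arrays of a group share their shift. Rnd1, a small GTPase that acts on the actin cytoskeleton, followed Acta1 most closely (r = 0.99), then Abca5 (0.97) and Akip1 (0.97). Deviations from the group means correlated with those of Acta1 at r = 0.87 for Rnd1, 0.71 for Abca5 and 0.70 for Akip1. Such correlations were higher than that of Rnd1 for the genes nearest to Actc1, Tpm1, Tpm2, Tmod1 and Tmod4. For those nearest to Tpm3 and Lmod2 they were lower. Tmod4 was followed by Mtm1, the phosphatase myotubularin (0.98), the complex I gene Ndufb5 (0.97) and the peroxisomal enzyme gene Gnpat (0.97). The likest to Tpm2 were the matrix genes Pcolce (0.97) and Olfml3 (0.96) with Snx8 (0.97), and to Tpm1 the mitochondrial genes Aifm1, Tefm and Mfn1 (each 0.95). Tpm3 on its first probe set was followed by Gpr160 and Spire1 (both 0.94) and by Nr1h3 (0.93). Spire1 encodes an actin nucleator. For Lmod2 the closest was Svil, an actin-binding protein (0.87), with Abcb6 and Lrrk2 (both 0.82). Actc1 was followed by Akap1 (0.95), Kcnn3 (0.94) and Gapdh (0.94), for which r without RVF+ 8 was 0.68, 0.85 and 0.49. Tmod1 was followed by Ndrg2 (0.96), Akap1 (0.94) and Abcc8 (0.94), for which r without RVF+ 8 was 0.69, 0.64 and 0.60.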

How the data were processed

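RNA of 16 right ventricular samples was hybridised to Affymetrix arrays, grouped by the condition in the labels. The authors deposited linear intensities made by RMA, per the submitters' processing notes, a method that compresses differences of dim probe sets. The sources used here name no software version or build. Intensities (2.202 to 10294) were converted to log2. Of 29214 probe sets, 18644 had exactly 1 symbol, and for each of 17245 genes the probe set with the highest mean was taken. Genes were fitted with limma 3.58.1 in R 4.3.3 to all arrays (13 residual degrees of freedom), and p-values are two-sided and Benjamini-Hochberg adjusted over all genes. The second Tpm3 probe set was tested in a fit of all 18644 probe sets.

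Acta2 was not analysed here, so 5 within-array ratios were tested in place of 6, by two-sided exact permutation over arrays, adjusted over 15 tests. The genes and lists were chosen with earlier results of these data known. The text names all 9 genes, the 3 genes most correlated with each measured one, and, from up to 4 called genes with the smallest adjusted p per list and comparison, those described. Alternatives were quantile normalization, centring, a filter on dim genes, other probe set rules, fits on 2 groups, trend, robust moderation (statmod 1.5.0), array weights, a threshold of 0.01 and leaving out each array. Results with the second Tpm3 probe set, and list counts without RVF+ 8, were added after seeing the data. The fit was tested on simulated data.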

Additional observations from a re-analysis of the deposited data

Results flagged for a closer look

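In 8 of 45 sets of values, each 1 gene or ratio in 1 group, the highest or lowest array lay far from the others by Dixon's criterion, where chance gives about 1 in 20. RVF+ 8 accounts for 4 of them. It was lowest for Actc1 (11.73, others 12.04 to 12.13) and Tmod1 (9.82, others 10.36 to 10.52), and highest for Tpm2 (8.62, others 6.65 to 7.01) and for the ratio of Tpm2 to Tpm1 relative to the CON mean (2.90, others 0.74 to 1.00). In RVF 13 the first Tpm3 probe set was high (9.69, others 9.51 to 9.53). RVF 16 was low in the ratio of Acta1 to Actc1 (1.86, others 2.15 to 2.2) and in that of the second Tpm3 probe set to Tpm1 (0.31, others 0.54 to 0.57). CON 4 was high for Tpm1 (10.18, others 10.07 to 10.11).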

How the results depend on the processing

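The counts of thin filament genes called, 4 in RVF+ and 5 in RVF against CON, ran from 4 to 5 in both when arrays were left out in turn, and the RVF count was 3 at an adjusted p under 0.01. Called ratios numbered 9 to 11 of 15 with arrays left out. Over all genes, RVF+ against CON called 4771, and 2957 at a threshold of 0.01. RVF against CON called 2957, and 4466 in a fit of these groups only, 4688 with array weights and 1519 at a threshold of 0.01. With arrays left out the counts ran from 4288 to 4993 in RVF+, from 2063 to 4247 in RVF, and from 0 to 3 in RVF+ against RVF, with 3 reached without RVF+ 12. Centring each array on its median changed the split in RVF+ against CON to 1998 higher and 3004 lower, against 2423 and 2348. Values that were not called changed sign in places. Actc1 in RVF against CON was -0.013 when centred and ran from -0.0033 to 0.043 with arrays left out. Tmod4 in RVF+ against RVF was 0.12 with array weights and ran from -0.65 to 0.47 with arrays left out, its ratio to Tmod1 from -0.47 to 0.54, and the ratio of Lmod2 to Tmod1 from -0.11 to 0.043. Tpm1 in RVF+ against CON passed among genes at or above the median only (limma adjusted p = 0.0489) and without RVF+ 12 (0.0412), beside the centred values. The ratio of Lmod2 to Tmod1 in RVF+ against CON (0.24) passed without CON 7, RVF+ 9 or RVF+ 12, and was 0.15 without RVF+ 8, where it did not pass. The cause of these changes was not tested. No paired analysis was possible because replicate numbers are not shared between groups. No detection calls were used, so the distance of dim values, such as Tmod4 in RVF+ 8, from background is unknown. Precision is limited by how few arrays each group has.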

Other observations

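Deviations of the thin filament genes from their group means were correlated across the 16 arrays, as a description of arrays that share a platform and normalization. Actc1 and Tmod1, the main cardiac actin and tropomodulin, varied together (r = 0.93), which was 0.57 over the 15 arrays without RVF+ 8. Tpm2 varied opposite to both (-0.80 with Actc1 and -0.82 with Tmod1), but without that array the values were -0.17 and -0.22. Tpm1 and Tmod4 varied together with r = 0.75, and 0.53 without RVF+ 8. Acta1 and Actc1 had r = -0.11 with all arrays and 0.55 without it.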
